A study of Mus musculus with 12 samples.

Results

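Expression of 3 genes of steroid synthesis was followed across 2 kinds of ovarian granulosa cell with and without gonadotropin stimulation. They were Cyp11a1 (probe set ENSMUST00000034874_at), Cyp19a1 (ENSMUST00000034811_at) and Star (ENSMUST00000033979_at). The 3 genes were taken by these identifiers from the 41115 transcript probe sets on the arrays, and all 3 were present. Their symbols were given with the identifiers and are not paired with them in the deposited table. No other transcript had the same values as any of the 3.

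Stimulated B6SJLF1 mice had been injected with 5 IU of equine chorionic gonadotropin (eCG, labelled PMSG in the sample titles) 44 hours before collection, and unprimed mice had not. The groups were stimulated mural, unprimed mural, stimulated cumulus and unprimed cumulus cells, with 3 arrays each. All mice were 22 days old, and each biological replicate was a pool of 5 mice. Cumulus samples came from 200 cumulus-oocyte complexes with the oocytes stripped out, and mural samples were clumps of about the same mass.

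Steroid hormones are made from cholesterol. The StAR protein, encoded by Star, moves cholesterol to the inner mitochondrial membrane, where the side-chain cleavage enzyme CYP11A1 turns it into pregnenolone. Aromatase, encoded by Cyp19a1, acts late in the pathway and turns androgens made by theca cells into oestrogens. In ovarian follicles, mural granulosa cells line the wall and cumulus cells surround the oocyte, and follicle-stimulating hormone, whose activity eCG carries, is known to raise aromatase in granulosa cells.

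RefSeq start-site windows on GRCm38.p6, which run from 250 bases before to 50 bases after each annotated start, were matched by symbol for 2 of the 3 genes, with 2 windows for Cyp11a1 and 3 for Cyp19a1. They were searched on both strands for AGGTCA, a half-site bound by nuclear receptors such as NR5A1, for the cyclic AMP response element TGACGTCA and for TATAAA. The windows that hold AGGTCA, 1 for each of these 2 genes, are printed with the match in capitals (AGGTCA, or TGACCT on the other strand). The first is chr9:58014702-58015001 on the plus strand, and the second is chr9:54268115-54268414 on the minus strand.
Cyp11a1: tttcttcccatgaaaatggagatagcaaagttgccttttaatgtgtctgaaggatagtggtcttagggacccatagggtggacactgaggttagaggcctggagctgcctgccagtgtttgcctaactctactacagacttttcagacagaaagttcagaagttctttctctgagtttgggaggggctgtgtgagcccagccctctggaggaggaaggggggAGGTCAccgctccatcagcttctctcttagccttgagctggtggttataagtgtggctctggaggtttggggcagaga
Cyp19a1: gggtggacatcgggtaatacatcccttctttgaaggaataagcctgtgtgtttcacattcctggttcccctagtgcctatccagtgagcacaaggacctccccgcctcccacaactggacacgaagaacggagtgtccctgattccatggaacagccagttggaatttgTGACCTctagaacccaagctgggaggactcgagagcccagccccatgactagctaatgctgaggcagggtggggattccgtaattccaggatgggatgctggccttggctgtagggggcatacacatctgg
AGGTCA was in 16.3% of all 32851 windows of 300 bases, TGACGTCA was in 1.79% and TATAAA in 13.6%. TGACGTCA was in 0 of the 5 windows and TATAAA in 2, both of Cyp19a1. The arrays do not show which start site was used.

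The values are log2 expression values made by the authors with RMA. Array medians over the transcript probe sets were 7.30 to 7.38, and with 3 arrays per group the number of arrays limits the precision. A probe set was tested where it lay above the 40th percentile of its array, called the filter level here (6.66 to 6.73), on at least 3 arrays, and 25917 did. Cyp19a1 lay above it on 12 arrays and Cyp11a1 on 7, which were the 6 mural arrays and 1 stimulated cumulus array. Star was below it on all 12 arrays and was not tested. The 25917 tested probe sets held 16809 distinct sets of values, so counts and shares of tested probe sets include repeats. The trpn controls, which match no mouse transcript, averaged 4.42 to 4.62 per array. The 24 probe sets for bacterial RNAs commonly added before amplification averaged 8.43 to 8.79 on stimulated cumulus arrays, against 7.59 to 7.80 on unprimed cumulus arrays, so these groups did not overlap. Identifiers are not paired with symbols, so the other genes of the pathway and markers of the cell types, of theca cells and of other cells were not analysed here. In such bulk samples, fewer cells of a type and less RNA per cell cannot be told apart.

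Cyp11a1 rose with eCG in mural cells and had its high values there. In stimulated mural cells its log2 values were 12.04, 11.44 and 12.37 in replicates 1, 2 and 3. In unprimed mural cells they were 7.47, 9.85 and 8.70. In stimulated cumulus cells they were 7.00, 6.71 and 6.51, and in unprimed cumulus cells 6.35, 6.23 and 6.58. The lowest stimulated mural array thus lay above the highest unprimed mural array, as for 12.8% of tested probe sets, while the cumulus groups overlapped and stayed near or below the filter level. In either cell type contrast all mural arrays lay above all cumulus arrays, as was so for 22.2% of tested probe sets in stimulated and 18.7% in unprimed mice. On stimulated mural arrays the gene stood on average above 97.1% of transcript probe sets, and on unprimed mural arrays above 68.8%.

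**Figure D1:**
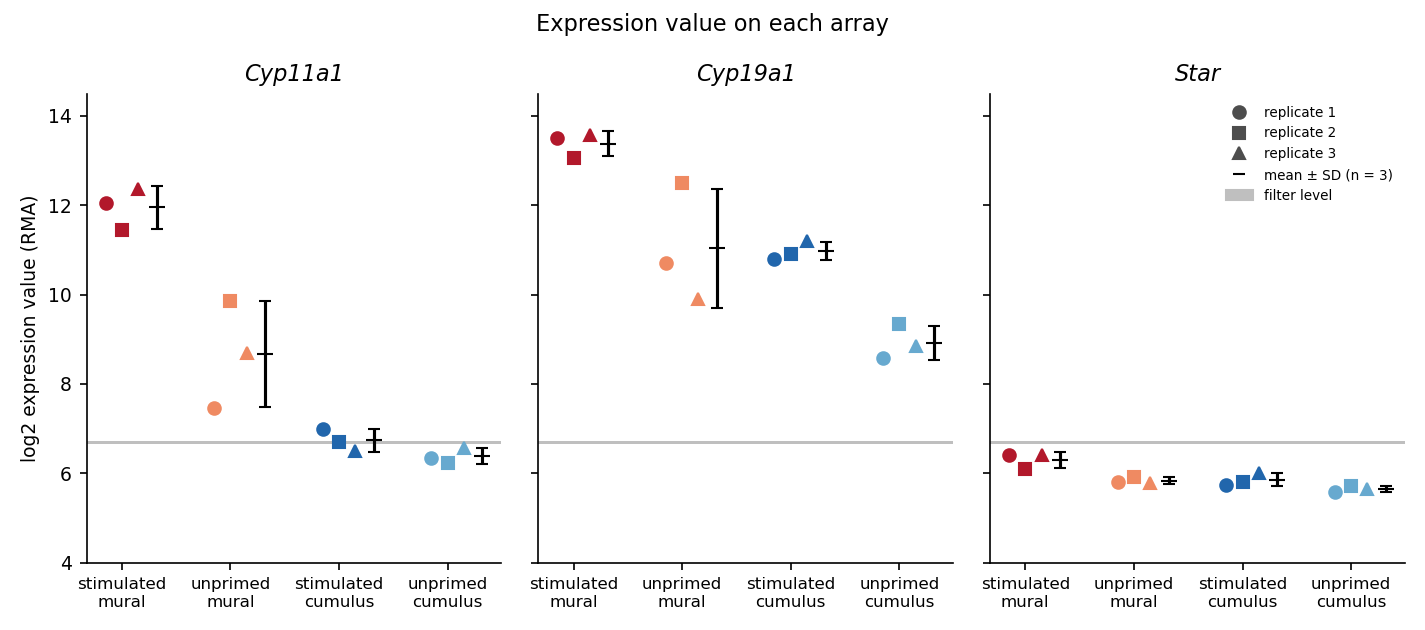
Log2 expression values (vertical axis) of Cyp11a1, Cyp19a1 and Star on each of the 12 arrays, by group, with the mean ± SD beside the points and the filter level as a grey band. Cyp11a1 is above the band on all mural arrays and at or below it on 5 of 6 cumulus arrays, Cyp19a1 is above the band on all arrays and Star is below it on all arrays.

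The stimulated mural mean of Cyp11a1 was 11.95 ± 0.47 against 8.67 ± 1.19 in unprimed mural cells (SD, n = 3 each). This was a rise of 3.28 ± 0.43 (SE) on the log2 scale, or 9.69-fold with a 95% confidence interval of 5.06 to 18.6 (limma, adjusted p = 0.00027 over 25917 probe sets). In that comparison 6.55% of tested probe sets were called higher, and 7 of the 25917 had a larger positive change than Cyp11a1. In cumulus cells the means were 6.74 ± 0.25 with eCG and 6.39 ± 0.17 without, a log2 difference of 0.35 ± 0.43 that did not pass the test (limma adjusted p = 0.61, interval -0.59 to 1.29). In that comparison 10.5% of tested probe sets were called higher. The SEs pool the spread of all 4 groups, although the unprimed mural arrays varied most. With only the 2 groups compared, the cumulus SE was 0.15 (limma adjusted p = 0.12, interval 0.02 to 0.68). The mural SE was then 0.53 (limma adjusted p = 0.0079). Array weights, which favoured unprimed mural replicate 1, the lowest of its group for Cyp11a1, gave a mural rise of 4.35 (limma adjusted p = 1.7e-06). That lies above the main log2 interval of 2.34 to 4.21.

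By the interaction test, the measured responses of Cyp11a1 differed between the cell types. The mural change exceeded the cumulus change by 2.93 ± 0.61 (SE) on the log2 scale (limma interaction, adjusted p = 0.022, interval 1.60 to 4.25), where 1.37% of tested probe sets were called in that direction. This call was lost when any one of 4 arrays was left out. The adjusted p was then 0.064 without stimulated mural replicate 1, 0.053 without stimulated cumulus replicate 2, 0.053 without unprimed cumulus replicate 1 and 0.060 without unprimed cumulus replicate 3, with log2 values of 2.88, 2.91, 2.95 and 2.83. The value was 4.62 with the added-control covariate (limma adjusted p = 0.015) and 3.99 with array weights (limma adjusted p = 0.0013). Because the cumulus values lay near or below the filter level, a cumulus change may not be fully measured and the size of this difference is not exact.

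Mural cells also had more Cyp11a1 than cumulus cells at both stages. After stimulation the log2 difference was 5.21 ± 0.43 (SE; limma adjusted p = 3.1e-06). In that comparison 18.3% of probe sets were called higher in mural cells. Without stimulation the difference was 2.29 ± 0.43 (limma adjusted p = 0.0036), against 10.8% called higher. Array weights, which rested mostly on unprimed mural replicate 1 in that group, gave an unprimed difference of 1.24 (limma adjusted p = 0.0053), and the added-control covariate gave a stimulated difference of 7.43 (0.00042). No fold or rank is given and the sizes are not exact, since the cumulus values were near the filter level. Taken by replicate number, mural minus cumulus was 5.04, 4.73 and 5.86 after stimulation and 1.12, 3.61 and 2.12 in unprimed mice, so the stimulated differences all exceeded the unprimed ones.

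In the main fit Cyp19a1 rose with eCG in both cell types and was higher in mural cells at both stages. Its cumulus rise cannot be told apart from the difference in added controls, as given below. In stimulated mural cells its log2 values were 13.50, 13.05 and 13.57, and in those of unprimed mice 10.71, 12.49 and 9.90. They were 10.80, 10.91 and 11.20 in stimulated cumulus cells and 8.58, 9.34 and 8.85 in unprimed cumulus cells. Neither cell type had an overlap between its stimulated and unprimed arrays, as was so in the upward direction for 12.8% of tested probe sets in mural and 21.3% in cumulus cells. In order of level, stimulated mural cells were followed by unprimed mural and stimulated cumulus cells, whose ranges overlapped, and unprimed cumulus cells came last. On stimulated mural arrays Cyp19a1 stood above 99.5% of transcript probe sets.

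In mural cells the means of Cyp19a1 were 13.37 ± 0.28 with eCG and 11.03 ± 1.33 without (SD, n = 3 each). The rise was 2.34 ± 0.47 (SE) on the log2 scale, or 5.06-fold with a 95% interval of 2.50 to 10.2 (limma adjusted p = 0.0048), and 26 of the 25917 tested probe sets had a larger positive change. In cumulus cells the means were 10.97 ± 0.21 and 8.92 ± 0.38. The rise there was 2.05 ± 0.47, or 4.14-fold with an interval of 2.05 to 8.38 (limma adjusted p = 0.011), and 14 tested probe sets had a larger positive change. With only the 2 groups compared, the SE was 0.56 in mural cells (limma adjusted p = 0.036) and 0.19 in cumulus cells (limma adjusted p = 0.00045). The added bacterial RNA controls were also higher on stimulated than on unprimed cumulus arrays, as given above. With their mean as a covariate, the cumulus change of Cyp19a1 was -0.11 ± 0.81 (SE; limma adjusted p = 0.98) and that of Cyp11a1 was -1.72 ± 0.72 (limma adjusted p = 0.50), while in mural cells the rises in that fit were 1.94 for Cyp19a1 and 2.90 for Cyp11a1, and both passed the test. That fit used 1 slope for all 12 arrays. In each cumulus group the array highest in Cyp19a1 was lowest in added controls (11.20 with 8.43 stimulated, 9.34 with 7.59 unprimed). In each mural group the array highest in Cyp19a1 was also highest in added controls (13.57 with 7.75 stimulated, 12.49 with 7.84 unprimed). The cumulus arrays highest in Cyp11a1, at 7.00 stimulated and 6.58 unprimed, had the middle added-control means of their groups (8.63 and 7.69). These orders rest on 3 arrays per group, and a slope within cumulus cells alone was not tested. The added controls and stimulation in cumulus cells vary together, and their separate parts cannot be told apart.

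**Figure D2:**
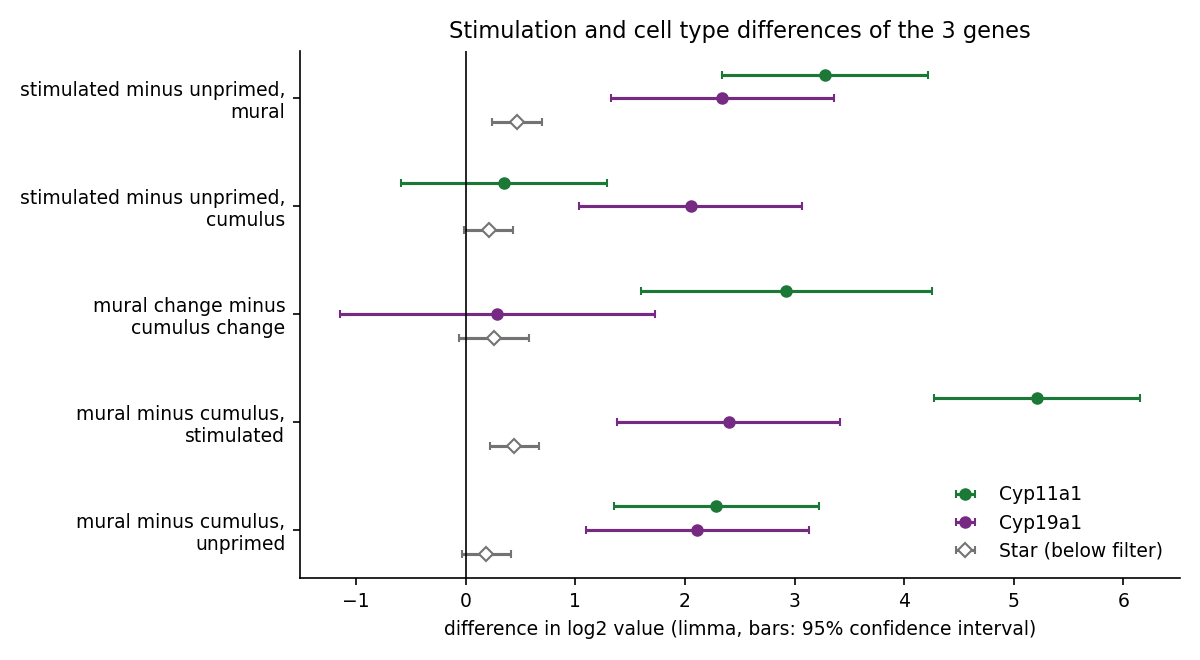
Differences in log2 value (horizontal axis) for the stimulation contrasts, the interaction and the cell type contrasts, as limma estimates with 95% confidence intervals. Cyp19a1 lies above 0 in both cell types, at 2.34 in mural and 2.05 in cumulus cells, while Cyp11a1 lies at 3.28 in mural and 0.35 in cumulus cells; open diamonds are Star, which was below the filter.

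A difference between the cell types in the Cyp19a1 response was not detected. The mural change minus the cumulus change was 0.29 ± 0.66 on the log2 scale (limma interaction, adjusted p = 0.86), and the interval of -1.15 to 1.73 leaves room for a difference of more than 2-fold in either direction. With the added controls as a covariate it was 2.06, with an interval of 0.34 to 3.77 (limma adjusted p = 0.39). The mural excess was 2.40 ± 0.47 after stimulation, or 5.28-fold (limma adjusted p = 0.0015), with 60 tested probe sets at a larger excess, and with the added-control covariate it was 4.71 (limma adjusted p = 0.0092). In unprimed mice it was 2.11 ± 0.47, or 4.32-fold (limma adjusted p = 0.0088), with 47 at a larger excess. By replicate number, mural minus cumulus was 2.70, 2.14 and 2.37 in stimulated mice, which lay within the range of the 2.13, 3.16 and 1.05 in unprimed mice.

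**Figure D3:**
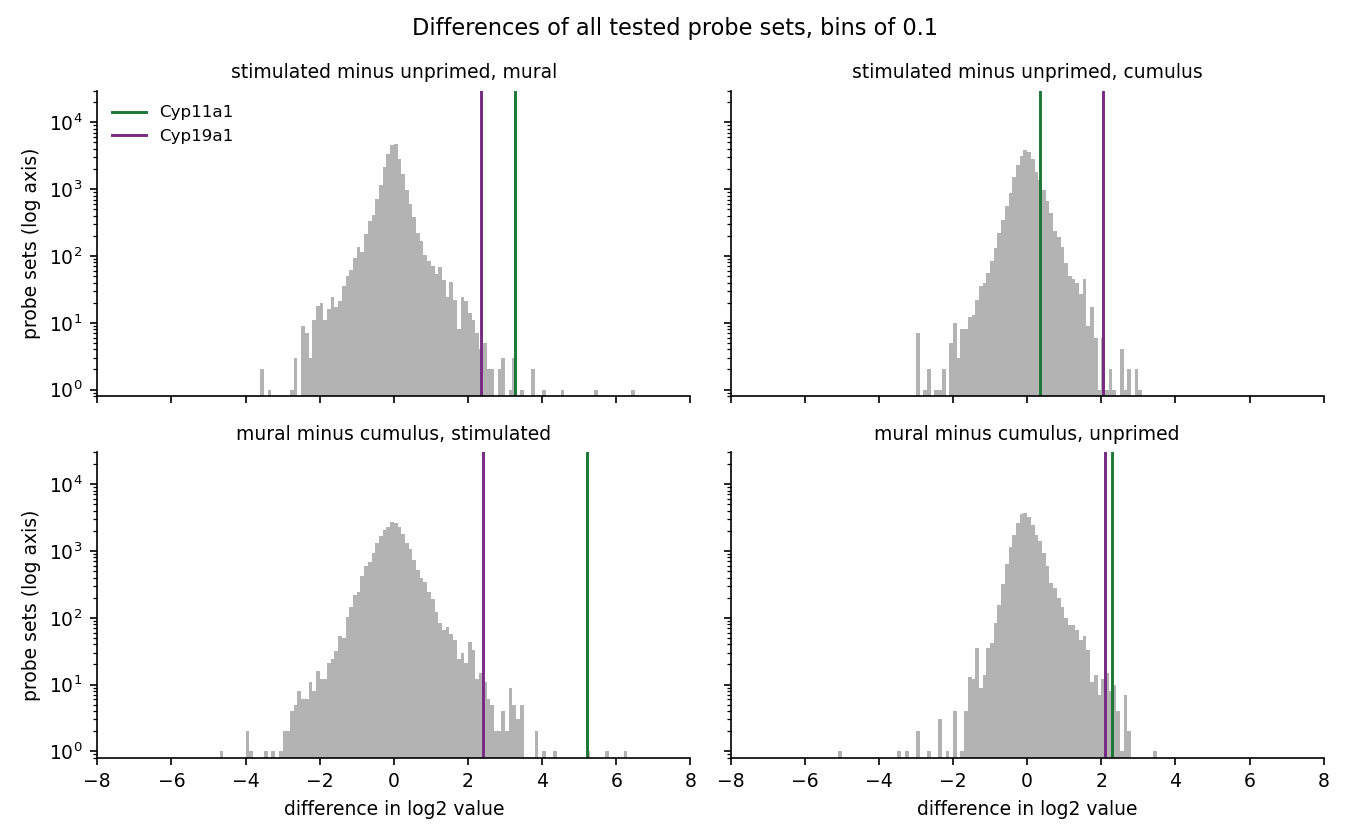
Number of tested probe sets (vertical log axis) by difference in log2 value (horizontal axis, bins of 0.1) for both stimulation and both cell type contrasts, with Cyp11a1 and Cyp19a1 as vertical lines. Both genes lie in the right tail of each panel, except Cyp11a1 in cumulus cells, at 0.35.

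Unprimed mural cells were the most variable group for both genes. The SD of 1.19 for Cyp11a1 in that group was larger than that of 99.97% of tested probe sets, and the SD of 1.33 for Cyp19a1 was larger than that of 99.98%. Replicate 2 was the highest array for both, 1.17 above the group mean for Cyp11a1 and 1.46 above it for Cyp19a1. The lowest array was replicate 1 for Cyp11a1 and replicate 3 for Cyp19a1. The added controls also averaged highest on replicate 2, at 7.84 against 7.32 and 7.23 on replicates 1 and 3, and their part in this spread was not tested. The 3' minus 5' difference of the actin and Gapdh controls was 1.60 on replicate 3, the highest of the 12 arrays. It was 1.38 and 1.36 on replicates 1 and 2, and its part was not tested either. With this difference as a covariate the mural rise was 1.70 for Cyp19a1 (limma adjusted p = 0.030) and 3.17 for Cyp11a1 (limma adjusted p = 0.0028). Without replicate 2 the mural rise was 3.86 for Cyp11a1 and 3.07 for Cyp19a1, and the unprimed mural excess was 1.70 and 1.38. Without replicate 1 the rise of Cyp11a1 was 2.68 and its unprimed mural excess 2.89, and without replicate 3 the rise of Cyp19a1 was 1.77 and its unprimed mural excess 2.68. All of these passed the limma test.

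**Figure D4:**
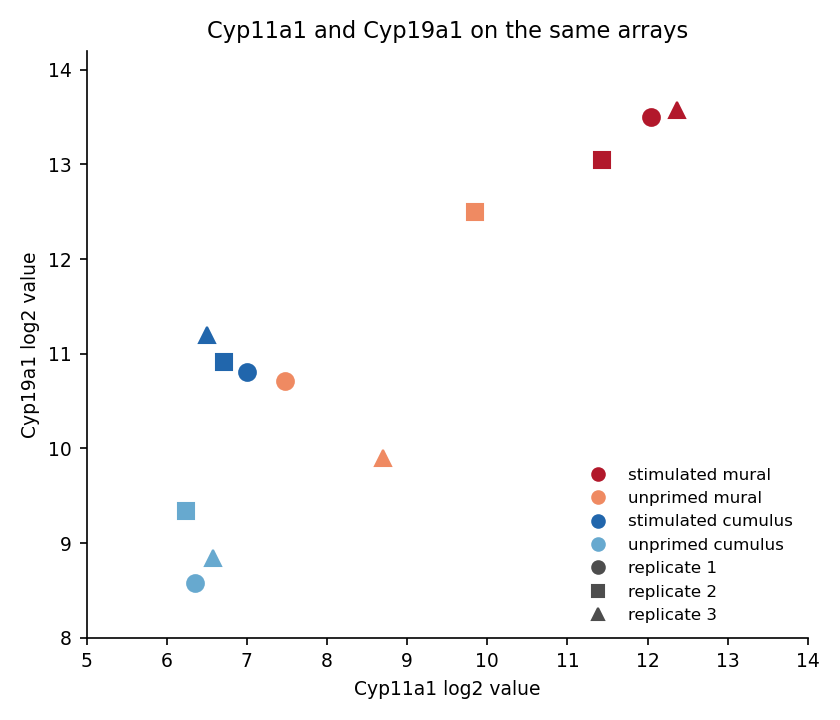
Cyp19a1 log2 value (vertical axis) against Cyp11a1 log2 value (horizontal axis) on the 12 arrays, coloured by group and shaped by replicate. Unprimed mural replicate 2, at 9.85 and 12.49, lies nearest to the stimulated mural arrays, and the cumulus arrays differ in Cyp19a1 at nearly constant Cyp11a1.

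Star was measured near the low end of the arrays. In stimulated mural cells its log2 values were 6.41, 6.09 and 6.40, and in mural cells of unprimed mice they were 5.80, 5.92 and 5.78. In stimulated cumulus cells they were 5.75, 5.81 and 6.02, and in unprimed cumulus cells 5.58, 5.71 and 5.65. These values exceeded the trpn controls and stayed below the filter level, so Star stood above only 22.1% to 33.4% of transcript probe sets in the group averages. The stimulated arrays did not overlap with the unprimed ones in either cell type, as was the case in the upward direction for 12.8% of tested probe sets in mural and 21.3% in cumulus cells. Star was not among those tested, and no share was taken over the probe sets below the filter.

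The log2 difference of Star between stimulated and unprimed cells was 0.47 in mural and 0.21 in cumulus cells. Mural minus cumulus was 0.44 in stimulated and 0.19 in unprimed mice. When all 41115 probe sets were tested with no filter, the mural difference with eCG (limma adjusted p = 0.013) and the mural excess after stimulation (limma adjusted p = 0.0068) passed the threshold. The cumulus difference with eCG (limma adjusted p = 0.21), the unprimed mural excess (0.27) and the interaction (0.44) did not. With all values below the filter level, no fold is given.

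The probe set whose values followed Cyp11a1 most closely over the 12 arrays was ENSMUST00000113920, with Pearson's r = 0.987. It rose by 1.58 on the log2 scale in mural cells, and its difference in cumulus cells was 0.28. For Cyp19a1 it was ENSMUST00000153812, with r = 0.983, which rose by 1.81 in mural and 1.42 in cumulus cells. Of 16808 other distinct sets of values, 255 had r above 0.9 with Cyp11a1 and 231 with Cyp19a1. Both probe sets were picked by r over these same arrays, so their similar changes follow from that choice. These are descriptions over arrays that fall into groups, and either probe set may be another transcript of the same gene, since no symbols are paired with the identifiers.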

How the data were processed

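Per the submitters' processing notes, the authors made the deposited log2 values with RMA in the affy package, a method that corrects background, normalizes arrays by quantiles and summarises probes, so a shift shared by most transcripts is removed. The RNA input of each sample was 20 ng, copied in more than 1 round of amplification per the labels' protocols. The sources used here name neither array model nor genome build. Of 41179 probe sets, 64 were controls and were left out of the tests. No pair of arrays shared over 0.0632% identical values.

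Group means were estimated over the 12 arrays together by limma 3.58.1 in R 4.3.3 (lmFit, then eBayes), with Benjamini-Hochberg adjustment over 25917 probe sets per contrast and a threshold of 0.05. The script was tested on simulated data. Alternatives covered filters, scaling, weights, covariates, a replicate block and leaving out each array. The genes, lists and tests were chosen with earlier results of these data known. Named probe sets were the 3 genes and, by rule, the 1 with the highest Pearson's r with each; that of Star is not given, since identifiers without symbols were kept to 2. The planned lists of pathway genes and cell type markers were not run because the reference table held 0 Ensembl identifiers. Same-numbered mural and cumulus arrays deviated together in unprimed mice (r = 0.11, 0.31 and 0.42), above the limit of 0.1 in every pair, though the labels do not state that numbers mark a shared pool. In the stimulated groups the values were 0.19, 0.14 and -0.13. Same-numbered stimulated and unprimed arrays, which came from different mice, gave 0.21, 0.036 and 0.12 in cumulus cells. In mural cells they gave -0.092, -0.54 and -0.48, so values of this size do not by themselves mark a shared pool. Plots were made in Python 3.11.15 (matplotlib 3.10.9).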

Additional observations from a re-analysis of the deposited data

Results flagged for a closer look

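Cyp11a1 responded differently to eCG in the cell types by the test of the interaction, with a log2 change 2.93 higher in mural than in cumulus cells. Its cumulus values lay near or below the filter level, and leaving out any one of 4 of the 12 arrays ended the call.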

How the results depend on the processing

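The alternatives gave 357 values for the 15 differences of the 3 genes. Of these, 346 kept their direction and their side of the threshold, or for Star moved by less than the spread between replicates. Part of this count could not come out otherwise. Changing the filter moves no difference, and leaving out an array moves no contrast between other groups. Star was tested only with no filter, so elsewhere it could not cross the threshold. With the added-control covariate the cumulus changes of Cyp11a1 and Cyp19a1 were -1.72 and -0.11. With the 3' minus 5' covariate the interaction of Cyp19a1 was -0.080 and the mural change of Star was 0.31. With no filter the Star values of 0.47 (mural eCG change) and 0.44 (stimulated mural excess) passed the threshold. Leaving out 1 array gave interactions of 2.33 to 3.51 for Cyp11a1 and -0.28 to 1.02 for Cyp19a1. The causes were not tested.

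The replicate block was the replicate number for the eCG contrasts, where same-numbered arrays came from different mice. For the cell type contrasts and the interaction it was the number within each stimulation. With this block the unprimed mural excess had a limma adjusted p of 0.0033 for Cyp11a1 and 0.0017 for Cyp19a1. Neither block changed a call of these 2 genes, and Star had no call with or without a block. Called probe sets numbered 5127 (eCG, cumulus), 3915 (eCG, mural), 10825 (cell types, stimulated), 5512 (cell types, unprimed) and 839 (interaction). In the same order they were 3279, 2453, 7102, 3636 and 542 with identical sets counted once. Array weights gave 8572, 13089 and 3191 for mural eCG, unprimed cell types and the interaction, and the covariate of added controls gave 38, 1535 and 177 for cumulus eCG, stimulated cell types and the interaction. Leaving out 1 array gave 2435 to 6101, 2397 to 4206, 8382 to 11549, 3192 to 5665 and 352 to 1458. Of the unprimed cell type calls 50.7% were higher in mural cells, against 38.5% after median centring and 59.8% after cyclic loess.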
